A study of Mus musculus with 13 samples.

Results

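The genes described here encode the synaptonemal complex and the HORMA-domain proteins of the meiotic chromosome axis. They were taken by gene symbol, as the rows of the deposited count table whose gene identifiers carry the names *Sycp1*, *Sycp2*, *Sycp3*, *Syce1*, *Syce2*, *Syce3*, *Tex12*, *Hormad1*, *Hormad2* and *Trip13* in GENCODE M21. All 10 genes were found among the 55335 rows of the table, and 8 of them had counts. The libraries come from female mouse embryos at E17.5, in which germ cells carrying the Tg(Pou5f1-EGFP)2Mnn reporter were sorted from the ovary pair of 1 embryo per library. WT (n = 3) and KO (n = 3) embryos came from a constitutive cross of parents heterozygous for a null allele of *Nr3c1*, the glucocorticoid receptor (GR) gene, and no tamoxifen is described for this cross. The null allele had been made by deleting the floxed exon 3 (Nr3c1tm1.1Jda) with a β-actin Cre, so that every tissue of a KO embryo lacks the receptor. In the conditional cross all embryos were homozygous for the floxed allele and all dams had received 125 μg / g tamoxifen at E10.5, and the embryos either carried the inducible Pou5f1tm1.1(cre/Esr1*)Yseg allele (cKO, n = 4) or lacked Cre (flox, n = 3). Deletion in cKO embryos is thus limited to cells that expressed Pou5f1 when tamoxifen was present. The labels name the libraries biological replicates but do not give litters, sorting days or library batches.

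In meiotic prophase the 2 sister chromatids of each chromosome are organised along a protein axis, and the axes of homologous chromosomes become joined along their length by the synaptonemal complex. SYCP2 and SYCP3 build the axis together with meiotic cohesins, SYCP1 forms the transverse filaments that bridge the axes, and SYCE1, SYCE2, SYCE3 and TEX12 form the central element that holds the filaments together. HORMAD1 and HORMAD2 sit on axes that are not yet synapsed. There HORMAD1 promotes DNA break formation and both proteins act in checkpoint signaling. The ATPase TRIP13 removes both from the axes once these are joined. In female mice this program runs before birth, and oocytes around E17.5 are in the middle of prophase.

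Where each gene lies relative to its neighbours set whether it could be measured. The deposited length of every one of the 55335 genes equals the span from its first to its last base on mm10, so that introns were part of the counted interval. Of protein-coding genes wholly covered by other genes, 1218 of 1218 had 0 counts in all 13 libraries. For comparison, 949 of 8589 genes (11%) covered over part of their interval and 3558 of 11591 genes (30.7%) covered by no other gene had 0 counts. *Sycp3*, the axis core gene, lies on the + strand of chromosome 10 from 88459569 to 88473236, wholly within *Chpt1* on the opposite strand, and had 0 counts in all 13 libraries. *Tex12*, a central element gene, lies on the − strand of chromosome 9 from 50556819 to 50561325, wholly within *Il18*, and also had 0 counts in all 13 libraries. The enclosing genes were counted, with 47 to 353 counts per library for *Chpt1* and 92 to 310 for *Il18*. The 0 counts of *Sycp3* and *Tex12* therefore say nothing about their expression in these oocytes, and neither gene was tested.

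*Syce2* was measured in part. *Gcdh*, on the opposite strand, covers the last 1829 bp (11.4%) of the *Syce2* interval on chromosome 8 (84872111 to 84888221), including the whole of its last 500 bp. The 3' ends of 3 of its 4 annotated transcripts lie in the covered stretch, and 3' Tag-Seq reads start near the 3' end of a transcript. *Gcdh* itself had 0 to 7 counts per library and *Syce2* had 2 to 166. The remaining genes were little affected by position. *Sycp1* (chromosome 3, 102818499 to 102936100) holds 3 pseudogenes that cover 0.869% of its interval, *Syce1* (chromosome 7, 140777229 to 140787852) holds 1 pseudogene over 4.58%, and *Trip13* (chromosome 13, 73911347 to 73937784) holds a miRNA gene over 0.477%. None of these lies over a 3' end, and all had 0 counts. *Sycp2* (chromosome 2, 178345293 to 178407685), *Syce3* (chromosome 15, 89390174 to 89410503), *Hormad1* (chromosome 3, 95559677 to 95587671) and *Hormad2* (chromosome 11, 4345814 to 4441105) overlap no other annotated gene.

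**Figure D1:**
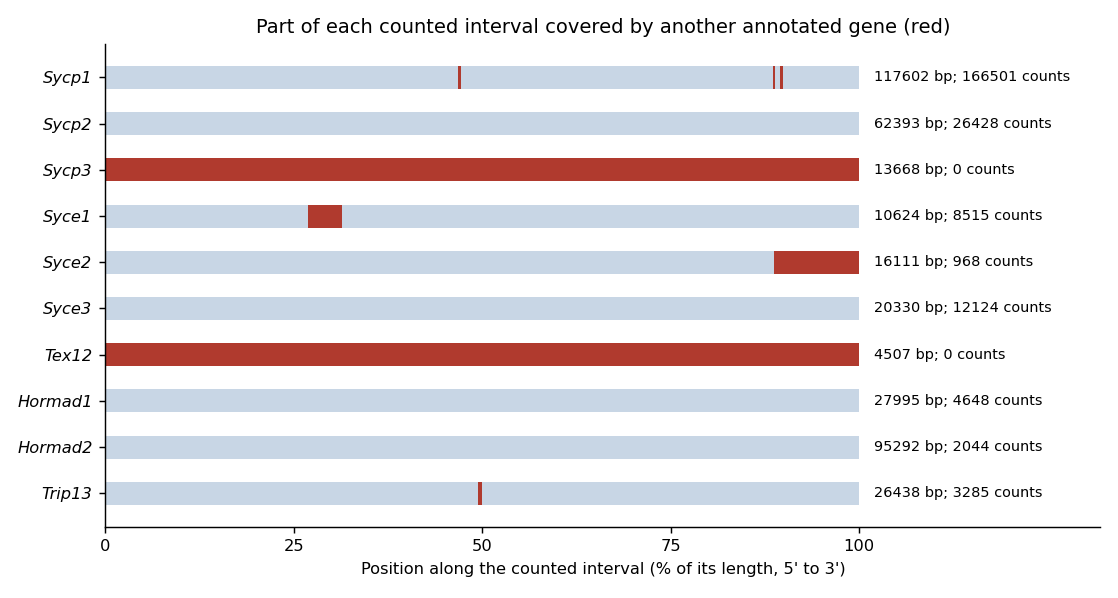
Counted interval of each gene, drawn from its 5' to its 3' end as percent of its length, with the part covered by another annotated gene in red and the interval length and total count of the 13 libraries at the right (the narrowest red bars are drawn at a minimum width). *Sycp3* and *Tex12* are covered throughout and have 0 counts, and *Syce2* is covered at its 3' end and has 968 counts.

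The promoters were searched for letters that transcription factors of interest read, because GR acts by binding DNA. RefSeq promoter windows on GRCm38.p6 (250 bases before and 50 after an annotated start) were found for all 10 genes, as 13 windows, since *Syce2*, *Syce3* and *Hormad1* have 2 starts each. The full GR recognition element, searched as AGAACA and TGTTCT separated by any 3 bases, was in the window of 0 of 10 genes and in 3 of 27025 genes (0.0111%). Its half-site AGAACA, searched on both strands, was in the window of 1 gene, *Sycp1*, against 5750 of 27025 genes (21.3%). The stretch of *Sycp1* that holds it is shown with the half-site in capitals, on the − strand at chr3:102936306-102936350.
*Sycp1* half-site: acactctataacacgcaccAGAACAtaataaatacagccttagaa

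An E-box and an E2F-type motif were also searched, as chosen motifs and not as the outcome of a search for recurring ones. The palindromic E-box CACGTG, read by the MAX family of factors, was in the windows of 5 of the 10 genes (*Sycp1*, *Sycp3*, *Syce2*, *Tex12* and *Hormad1*) and in those of 2187 of 27025 genes (8.09%). MAX together with MGA and E2F6 belongs to a Polycomb complex known for silencing meiotic genes in cells outside meiosis. The E2F-type motif GGCGGGAA, on either strand, was in the windows of 3 genes (*Syce2*, *Tex12* and *Hormad1*), each of which also held the E-box, and in those of 681 of 27025 genes (2.52%). These motifs do not overlap one another in the windows. The matches are a description of the sequence and were not tested for use, and a motif missing from a window may lie elsewhere. The windows of the 10 genes were 54.7% to 69.3% GC, and the shares over all genes were not matched for base composition. The stretches with the E-box are shown 5' to 3' on the strand of the gene, with CACGTG in capitals and 20 bases on each side, up to the start. They lie at chr3:102936169-102936214 (−), chr10:88459503-88459569 (+), chr8:84872150-84872195 (+), chr9:50561336-50561381 (−) and chr3:95559600-95559676 (+), in the order shown.
*Sycp1*: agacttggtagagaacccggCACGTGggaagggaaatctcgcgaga
*Sycp3*: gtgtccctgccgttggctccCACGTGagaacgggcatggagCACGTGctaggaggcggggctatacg
*Syce2*: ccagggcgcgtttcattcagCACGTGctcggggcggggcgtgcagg
*Tex12*: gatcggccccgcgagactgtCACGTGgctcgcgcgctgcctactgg
*Hormad1*: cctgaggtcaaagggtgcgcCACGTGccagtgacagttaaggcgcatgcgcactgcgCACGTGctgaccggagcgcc
*Sycp3* and *Hormad1* hold 2 copies each, and the others hold 1. The *Syce2* stretch lies before the later of its 2 starts, at 84872258, and after the earlier, at 84872111.

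**Figure D2:**
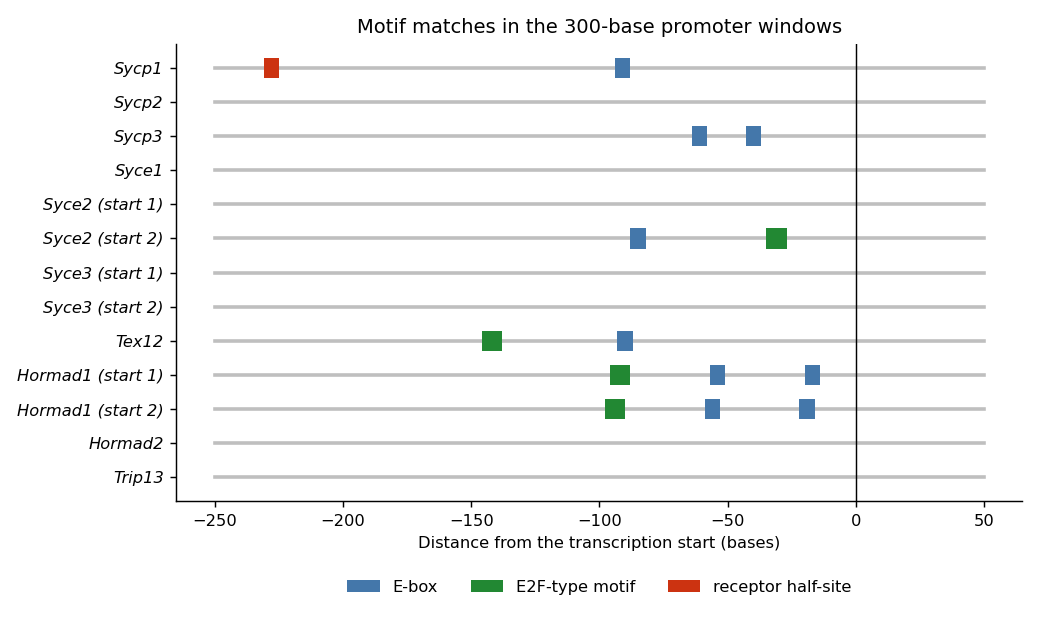
Position of the E-box, the E2F-type motif and the GR half-site in the 13 promoter windows, in bases from the annotated start at 0 (negative values lie before it). Every E-box match lies before the annotated start of its own window, in 5 of the 10 genes, and the single half-site lies in *Sycp1*. For *Syce2* this is the later of its 2 starts, and the match lies after the earlier one.

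Gene counts summed to 2048706 at the lowest and 3674989 at the highest library (median 2483236), and levels are given as CPM, the count scaled to a common library size after TMM normalization, on which 1 count is worth 0.272 to 0.486. Summed markers of fetal ovary germ cells were at 4944 to 7540 CPM per library with all 9 of 9 detected, against 118 to 346 CPM for ovarian somatic cells (14 of 15 detected, *Tcf21* at 0). Several sums separated KO from WT. The germ cell sum was 7190 to 7540 CPM in KO and 4944 to 6786 in WT, the somatic sum 118 to 129 and 156 to 173, the endothelial sum 8.80 to 30.0 and 35.8 to 46.8, and the macrophage sum 7.92 to 19.4 and 0.478 to 2.45. Erythroid markers were at 76.9 to 191 CPM in cKO and 282 to 1323 in flox, while the other 4 sums overlapped between these groups. Of all tested genes, 9.46% did not overlap between KO and WT and 4.97% did not between cKO and flox. The part of these cells in either comparison was not tested. The flox replicate 1 stood apart with 1323 CPM of erythroid markers, against 0 to 377 CPM in the other libraries (4 of 6 detected, *Hbb-y* and *Alas2* at 0). *Nr3c1*, the targeted gene, was at 29.1 to 58.7 CPM in WT, 26.3 to 73.4 in KO, 46.5 to 104 in flox and 30.1 to 72.8 in cKO. Gene counts of a 3' protocol do not report the deleted exon, so these values do not check the genotypes. The paper reports complete loss of GR protein in KO ovaries by immunofluorescence at E17.5, and loss by immunoblot and qRT-PCR at earlier stages. By 3' single-cell RNA-seq at E15.5, the paper reports *Nr3c1* transcript depleted in every cell type of KO ovaries. Here the mean was 44.6 CPM in WT and 44.6 CPM in KO, and the reason for this difference was not tested. In bulk samples, fewer cells and less RNA per cell cannot be told apart.

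*Sycp1* was among the most abundant transcripts of the sorted cells. Its mean level over the 13 libraries was 5129 ± 1047 CPM (SD), the 6th highest of all genes, and it took 0.506% of all counted reads (0.291% to 0.682% per library). It alone made up on average 73.7% of the summed CPM of the 8 measured genes. *Sycp2* followed at 820 ± 167 CPM, rank 93 of all genes. Both ranks are by counts as deposited, in which wholly covered genes such as *Sycp3* stand at 0. The central element genes were lower, with *Syce3* at 373 ± 98.2 CPM, *Syce1* at 261 ± 57.7 CPM and the partly covered *Syce2* at 29.9 ± 21.4 CPM. Of the axis HORMA genes, *Hormad1* was at 141 ± 52.4 CPM and *Hormad2* at 62.1 ± 24.4 CPM, and *Trip13* was at 100.5 ± 39.6 CPM (each SD, 13 libraries).

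Set per kilobase of annotated exon, the order of the genes changed. *Sycp1* still came first at 1442 ± 295 CPM per exon kb, followed by *Syce3* at 675 ± 178, *Syce1* at 179 ± 39.5, *Sycp2* at 137 ± 27.9, *Hormad1* at 81.4 ± 30.3, *Trip13* at 28.9 ± 11.4, *Hormad2* at 22.7 ± 8.93 and *Syce2* at 15.2 ± 10.9 (SD, 13 libraries). In a 3' protocol a transcript yields tags from its end whatever its length, so dividing by length favours short transcripts such as *Syce3*, with 553 exonic bases, over long ones such as *Sycp2*, with 5967. On the per-length scale *Syce3* exceeded *Syce1*, and *Sycp2* exceeded *Hormad1*, in 13 of 13 libraries. *Sycp1* exceeded *Syce3*, and *Hormad1* exceeded *Trip13*, in 12 of 13. *Syce1* exceeded *Sycp2* in 9 of 13 libraries, *Trip13* exceeded *Hormad2* in 8 and *Hormad2* exceeded *Syce2* in 7. The order of these neighbours on the per-length scale thus varied between libraries, and it was not tested. As CPM, *Sycp2* (518 to 1060) lay above *Syce1* (188 to 361) in every library.

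**Figure D3:**
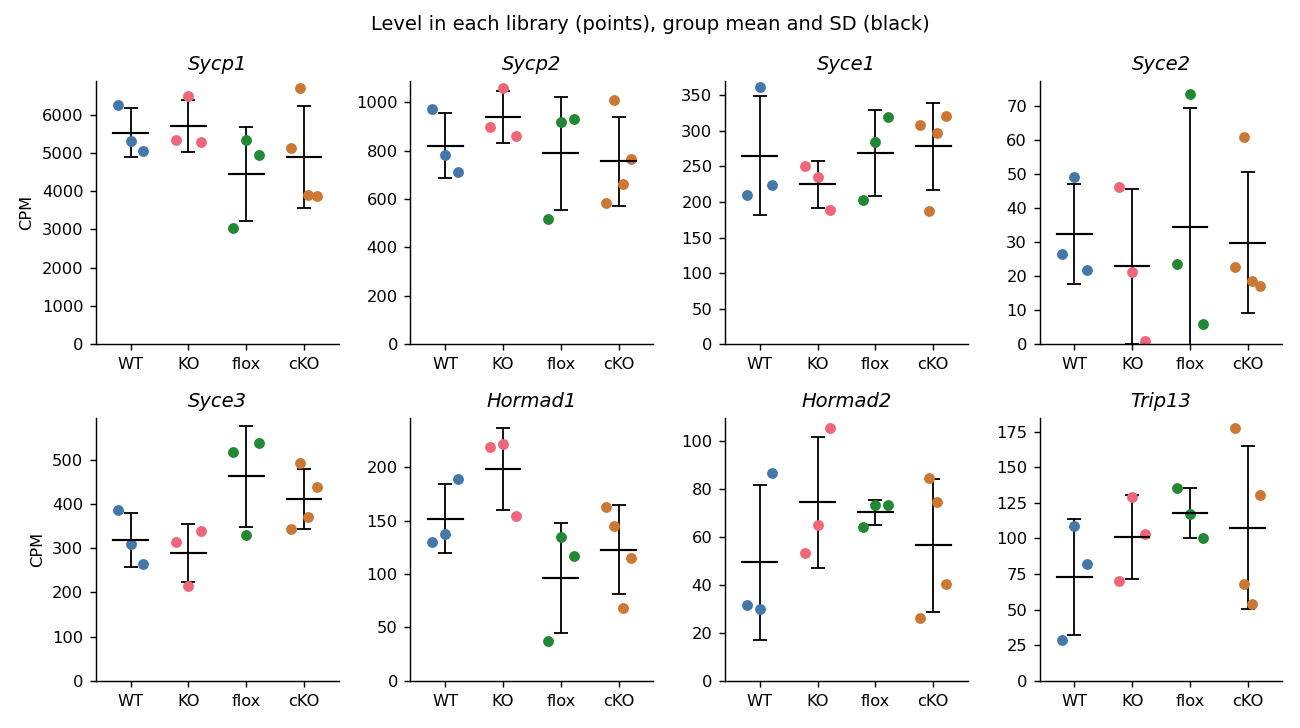
Level of the 8 genes with counts in each of the 13 libraries, in CPM after TMM normalization (points), with the group mean (horizontal line) and SD (bars, stopped at 0 where they reach below it). For every gene the KO points overlap those of WT and the cKO points overlap those of flox.

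The first question was whether loss of GR in the whole embryo changed the mRNA of these genes in oocytes. No change was detected. By the quasi-likelihood test in edgeR, 0 of the 8 genes passed an adjusted p of 0.05 in KO against WT, 0 had an unadjusted p under 0.05, and log2 fold changes ran from −0.50 to 0.58. No gene of the whole table passed either (0% of 13086 genes tested), and 761 had an unadjusted p under 0.05. DESeq2 and limma's voom also called 0 of the 8 and gave 0 an unadjusted p under 0.05, while over all genes DESeq2 called 12 of 15148 and voom 0 of 13086. KO and WT libraries overlapped for all 8 genes, while 9.46% of all tested genes did not overlap between these groups. The median log2 fold change of the 8 genes was 0.12, with 5 positive and 3 negative values, and that of all genes was −0.03.

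*Sycp1*, the transverse filament gene, was at 6258, 5302 and 5041 CPM in the WT libraries and at 5347, 6484 and 5294 CPM in the KO libraries. The log2 fold change was 0.04 (standard error, SE, 0.26), a 95% interval of 0.716 to 1.49 as a fold (exact permutation test, two-sided, p = 0.6). The groups covered the same range. *Sycp2*, of the axis, was at 971, 780 and 710 CPM in WT and at 895, 1060 and 862 CPM in KO. This is a log2 fold change of 0.20 (SE 0.28), with the highest WT library above 2 of the 3 KO libraries.

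Of the central element genes, *Syce1* was at 210, 361 and 224 CPM in WT and at 251, 236 and 188 CPM in KO, a log2 fold change of −0.24 (SE 0.31). WT replicate 2 alone was high, and without it the estimate was 0.06. *Syce3* was at 385, 308 and 263 CPM in WT and at 313, 214 and 338 CPM in KO, a log2 fold change of −0.14 (SE 0.29). *Syce2* had 60, 103 and 80 counts in WT and 122, 44 and 2 counts in KO. The library with 2 counts, KO replicate 3, was at the median depth, with 2483236 counted reads. The log2 fold change of *Syce2* was −0.50 with an interval from −2.42 to 1.42, and without KO replicate 3 it was 0.08.

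*Hormad1*, the HORMA gene needed for normal break numbers, was at 130, 137 and 189 CPM in WT and at 219, 221 and 154 CPM in KO. Both higher KO libraries lay above all of WT and the other lay within it. The log2 fold change was 0.38 (SE 0.40), a fold of 1.30 with an interval from 0.731 to 2.32 (two-sided exact permutation p = 0.2, where 0.1 is the lowest that 20 divisions can give). *Hormad2* was at 31.4, 30.1 and 86.5 CPM in WT and at 53.2, 64.7 and 105 CPM in KO, so that WT replicate 3 fell among the KO libraries. Its log2 fold change of 0.58 (SE 0.52; adjusted p = 0.991) was the largest of the 8, and leaving out 1 library moved it from 0.26 (without KO replicate 3) to 1.28 (without WT replicate 3). *Trip13*, the ATPase that removes both proteins from the axis, was at 28.8, 108 and 82.4 CPM in WT and at 70.3, 129 and 103 CPM in KO. Its log2 fold change was 0.46 (SE 0.47), and leaving out 1 library moved it from 0.09 (without the low WT replicate 1) to 0.86 (without WT replicate 2).

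The second question was whether deletion limited to the germ line gave another picture. In cKO against flox 0 of the 8 genes passed the adjusted p of 0.05, 0 had an unadjusted p under 0.05, and log2 fold changes ran from −0.32 to 0.35. Again 0% of the 13086 tested genes were called, and 418 had an unadjusted p under 0.05. DESeq2 and voom again called 0 of the 8, with 0 at an unadjusted p under 0.05, and 5 of 21551 and 0 of 13086 over all genes. The groups overlapped for all 8 genes, against 4.97% of all tested genes that did not overlap. The median log2 fold change was −0.10 over the 8 genes, with 3 positive and 5 negative values, and −0.01 over all genes.

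*Sycp1* was at 3048, 5346 and 4945 CPM in the flox libraries and at 5130, 6698, 3907 and 3876 CPM in the cKO libraries. The flox replicate 1 was the lowest of all 13 libraries and cKO replicate 2 the highest, and the log2 fold change was 0.14 (SE 0.24; exact permutation test, two-sided, p = 0.657). *Sycp2* was at 518, 917 and 928 CPM in flox and at 585, 1009, 661 and 765 CPM in cKO, a log2 fold change of −0.06 (SE 0.26). The same flox library was again the lowest of the 13.

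*Syce1* was at 203, 284 and 320 CPM in flox and at 308, 188, 297 and 322 CPM in cKO, a log2 fold change of 0.05 (SE 0.29). *Syce3* was at 518, 331 and 538 CPM in flox and at 344, 492, 371 and 438 CPM in cKO, a log2 fold change of −0.17 (SE 0.27). All cKO libraries lay within the flox range of *Syce3*, and 2 of 4 within that of *Syce1*. *Syce2* had 56, 166 and 12 counts in flox and 66, 156, 51 and 50 counts in cKO, with a log2 fold change of −0.20 and an interval from −1.98 to 1.58, which spans both directions.

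*Hormad1* was at 37.6, 135 and 116 CPM in flox and at 163, 145, 67.9 and 115 CPM in cKO. Its log2 fold change of 0.35 (SE 0.38) rested on the low flox replicate 1, the library with the high erythroid markers, and was −0.03 without it. *Hormad2* was at 64.2, 73.3 and 73.2 CPM in flox and at 26.3, 84.3, 74.5 and 40.4 CPM in cKO. The flox libraries were close together inside the wide cKO range, and the log2 fold change was −0.32 (SE 0.48). *Trip13* was at 136, 117 and 100.4 CPM in flox and at 177, 68.3, 54.0 and 131 CPM in cKO, again with the flox libraries inside the cKO range and a log2 fold change of −0.13 (SE 0.43).

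**Figure D4:**
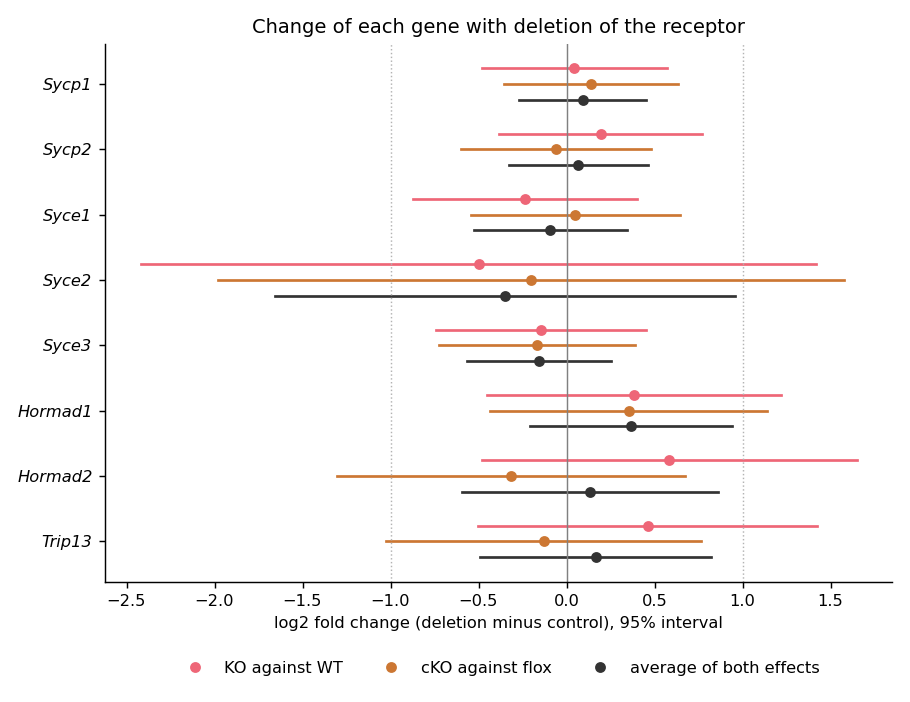
Log2 fold change of each gene (points) with its 95% interval (lines) for KO against WT, cKO against flox and the average of both effects, with dotted lines at −1 and 1, a 2-fold change. Every interval includes 0, and the *Syce2* intervals are the widest.

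Averaging the effects of both deletions gave the narrowest bounds. Again 0 of the 8 genes passed the test, as did 0% of all genes (699 with an unadjusted p under 0.05, 0 of them among the 8 genes). *Hormad1* had the largest average log2 fold change, 0.37 (SE 0.28, interval −0.21 to 0.94, adjusted p = 0.946). For *Sycp1* the interval ran from 0.83 to 1.37 as a fold, for *Sycp2* from 0.797 to 1.38, for *Syce3* from 0.676 to 1.19 and for *Syce1* from 0.694 to 1.27. The interval lay within a 2-fold change in either direction for 7 of the 8 genes, all but *Syce2*, against 28.2% of all tested genes. In the single comparisons it did so for *Sycp1*, *Sycp2*, *Syce1* and *Syce3* in both crosses, 4 of the 8 genes, against 11.4% of tested genes in KO and 14.9% in cKO. These shares depend on the SE, whose median for the average was 0.24 over the 8 genes and 0.58 over all tested genes. The difference between the effects in the 2 crosses passed the test for 0 of the 8 genes and 0% of all genes (574 with an unadjusted p under 0.05, 0 of them among the 8). It was largest for *Hormad2*, −0.90 on the log2 scale (SE 0.70, interval −2.35 to 0.55), which was positive in KO and negative in cKO.

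The conditional and the constitutive cross were also compared, irrespective of deletion. Here 0 of the 8 genes passed the adjusted threshold, as did 0.00764% of all genes (1 gene). *Syce3* was at 433 ± 85.6 CPM in the conditional cross (SD, n = 7) and 304 ± 59.2 CPM in the constitutive cross (n = 6). The log2 difference was 0.52 (SE 0.20; exact permutation test over 1716 divisions, two-sided, p = 0.0111; adjusted p over all genes = 0.822). Its range was 331 to 538 CPM in the conditional and 214 to 385 CPM in the constitutive libraries, so that the ranges overlapped only in part. *Hormad1* went the other way, at 111 ± 44.2 CPM in the conditional and 175 ± 40.5 CPM in the constitutive cross. The log2 difference was −0.67 (SE 0.28; exact permutation test, two-sided, p = 0.0274; adjusted p = 0.838), and −0.48 without flox replicate 1. These were the 2 genes of the 8 with an unadjusted p under 0.05, a level that 731 of all 13086 genes reached. *Syce3* kept it in 13 of 13 fits that left out 1 library and *Hormad1* in 11, with a highest p of 0.073. Tamoxifen, the parental alleles and any difference in processing cannot be told apart here, since each cross has its own. Somatic markers summed to 131 to 346 CPM in the conditional and 118 to 173 CPM in the constitutive libraries, and erythroid markers to 76.9 to 1323 and 0 to 238 CPM. The part of these cells in both differences was not tested.

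The libraries were not simply high or low for the whole gene set. The flox replicate 1 was the lowest of the 13 libraries for *Sycp1*, *Sycp2* and *Hormad1* but only 1 library was higher for *Syce3* and 1 for *Trip13*. KO replicate 2 was the highest for *Sycp2* and *Hormad1* and the lowest for *Syce3*. Over the 28 pairs of genes, the Pearson correlation of log2 CPM ran from −0.649 to 0.809 with a median of −0.03. *Sycp1* and *Sycp2*, the filament gene and the axis gene, varied together (r = 0.805, p = 0.00112, adjusted p = 0.0206; Spearman rho = 0.802, p = 0.00163, adjusted p = 0.0456; permutation tests, adjusted over 28 pairs). The correlation was 0.72 without the 2 libraries farthest from the *Sycp1* median, 0.905 within the constitutive and 0.754 within the conditional cross. *Sycp1* and *Hormad1* had r = 0.809 (permutation p = 0.00147, adjusted p = 0.0206) but a rho of 0.632 (permutation p = 0.0241, adjusted p = 0.225). Their correlation was 0.854 in the conditional cross and 0.0276 in the constitutive cross, and 0.609 without the 2 libraries farthest from the *Sycp1* median, so it did not hold within both crosses. No other pair passed the adjusted threshold by r.

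**Figure D5:**
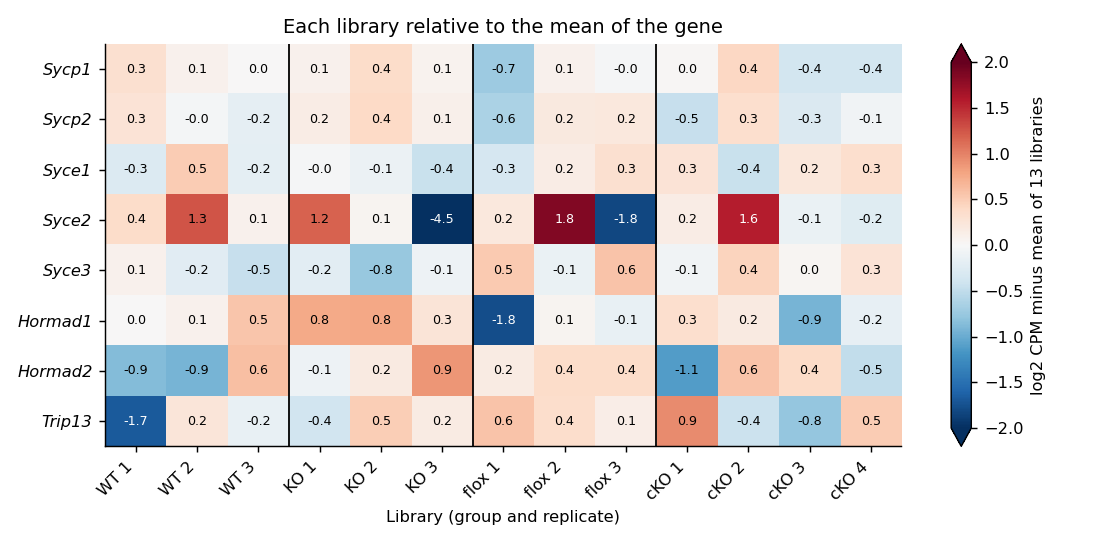
Log2 CPM of each gene in each library relative to its mean over the 13 libraries, with vertical lines between the 4 groups and colors limited to −2 to 2. The flox replicate 1 is low for *Sycp1*, *Sycp2* and *Hormad1*, and the largest single departure is that of *Syce2* in KO replicate 3.

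Genes whose level most resembled each member over the 13 libraries were sought among the 7176 genes that averaged 50 counts or more, by Pearson correlation of log2 CPM and without a test. For *Sycp1* these were *Ocrl* (r = 0.866), *Mga* (0.845) and *Inpp5f* (0.843). For *Sycp2* they included *Gmps* (0.913) and *Trmt13* (0.872), and for *Hormad1* they were *Runx1t1* (0.921), a gene without a name in M21 (0.887) and *Zmat1* (0.876). The highest were *Chd7* for *Syce1* (0.878), *Tra2a* for *Syce2* (0.907), *Ndufa3* for *Syce3* (0.817), *Fam126b* for *Hormad2* (0.822) and *Chordc1* for *Trip13* (0.899). None of the 3 most similar genes of any member was another member. The points share library depth and cell composition, and each value is the extreme of many.

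The partners of these proteins were taken as 28 genes in 4 lists, of which 27 were tested and 0 passed the adjusted threshold in either deletion. In KO 2 of the 27 (7.41%) had an unadjusted p under 0.05, both higher, against 5.82% of all genes (309 higher, 452 lower), and in cKO 0 did, against 3.19% of all genes. The groups did not overlap for 3 of the 27 (11.1%) in KO, namely *Stag3*, *Tex15* and *Mad2l1*, and for 3 of the 27 in cKO, namely *Mei4*, *Iho1* and *Mei1*. The shares over all tested genes were 9.46% and 4.97%. Their median log2 fold change was 0.10 in KO (17 positive, 10 negative) and −0.22 in cKO (8 positive, 19 negative), beside −0.03 and −0.01 over all genes.

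Among the cohesins of the axis, 4 of 5 were tested, and *Rec8*, the meiotic kleisin, had 0 to 19 counts per library and was not. Overlap with other annotated genes was not examined for the partners. Low counts of a partner, such as those of *Rec8*, therefore need not mean low expression. *Smc1b*, the meiotic SMC1 subunit, was at 4193 ± 213 CPM in WT and 4455 ± 1317 in KO, a log2 fold change of 0.09 (SE 0.25), and at 3553 ± 881 in flox and 3680 ± 684 in cKO (SD, n = 3, 3, 3 and 4). *Stag3*, the meiotic STAG subunit, was at 352 ± 29.5 CPM in WT and 456 ± 19.6 CPM in KO (SD over 3 embryos) and did not overlap between them (log2 fold change 0.38, SE 0.27, adjusted p = 0.959). It was at 310 ± 46.8 CPM in cKO and 415 ± 119 in flox, with overlap (log2 fold change −0.42, SE 0.25, adjusted p = 1.00). *Rad21l*, a further kleisin, had log2 fold changes of 0.10 (SE 0.87) and −0.76 (SE 0.81), and *Smc3*, shared with mitotic cohesin, had −0.20 (SE 0.29) in cKO.

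Of the 10 synapsis partners, *Tex15*, which acts in recombination, was at 3539 ± 360 CPM in WT and 4171 ± 214 CPM in KO, without overlap (log2 fold change 0.24, SE 0.23, adjusted p = 0.999). *Fbxo47*, an F-box gene needed for stable synapsis, had a log2 fold change of 0.83 (SE 0.61) in KO. *Syce1l*, a relative of *Syce1*, had an unadjusted p under 0.05 in KO, with 0 counts in each WT library and 0 to 60 counts in KO (exact permutation test, two-sided, p = 1). All of its KO counts came from a single library, at 29.2 CPM. In cKO the 3 partners with the lowest p were *Rnf212* (−0.45, SE 0.41), *Tex11* (−0.36, SE 0.38) and *Six6os1* (−0.23, SE 0.27), on the log2 fold change scale. *Six6os1*, whose protein binds SYCE1 in the central element, was at 939 to 1101 CPM as group means, against 755 to 939 for *Sycp2*.

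In the list of break machinery and surveillance genes, low counts left wide errors. *Mei4*, needed for DNA breaks, had a log2 fold change of −2.89 (SE 1.43) in KO, where the groups overlapped, and of 1.97 (SE 1.33) in cKO, where every cKO library (33 to 60 counts) lay above every flox library (2 to 19 counts; two-sided exact permutation p = 0.0286, which this design cannot go below; adjusted p = 1.00). *Iho1*, the HORMAD1-interacting break factor, had 1.62 (SE 1.97) in KO and −2.20 (SE 1.83) in cKO, with at most 30 counts in any library. Its cKO libraries (0 to 6 counts) lay below those of flox (6 to 12 counts) as CPM (two-sided exact permutation p = 0.0571, adjusted p = 1.00). *Atr*, the checkpoint kinase, had −0.53 (SE 0.48) in KO, and *Mei1* −0.61 (SE 0.44) in cKO, where every cKO library lay below every flox library (two-sided exact permutation p = 0.0857, adjusted p = 1.00). Of the mitotic HORMA genes, *Mad2l1*, which encodes the spindle checkpoint protein MAD2, was at 84.2 ± 48.0 CPM in WT against 174 ± 10.2 CPM in KO (SD, 3 embryos per group). These did not overlap, and the log2 fold change was 1.04 (SE 0.42; exact permutation test, two-sided, p = 0.1; adjusted p = 0.847), against 0.28 (SE 0.39) in cKO. *Mad2l2* and *Mad2l1bp*, the latter encoding the adaptor between MAD2 and TRIP13, had log2 fold changes of −0.15 (SE 1.80) and −0.26 (SE 0.91) in KO, and of 1.38 (SE 1.76) and 0.10 (SE 0.85) in cKO.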

How the data were processed

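Germ cells positive for *Pou5f1*-GFP were sorted from single embryos at E17.5, and 13 QuantSeq 3' Tag-Seq libraries were made. The authors trimmed reads with cutadapt, aligned them to mm10 with STAR 2.6.0 and counted reads per gene with featureCounts 1.6.3. The deposited table holds these counts without normalization. The annotation, feature type and strand setting of the counting are not given in the sources used here. 2 further deposited tables hold the authors' own fold changes and p-values, made with edgeR 3.28.1 and limma 3.42.2, and were not used. Gene symbols were taken from GENCODE M21, whose intervals were identical for 54587 of the 55335 genes. Groups and replicates were taken from the sample labels. The members and lists were chosen with earlier results of these data known.

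Counts were tested with edgeR 4.0.16 (R 4.3.3) in one fit of the 13 libraries with 4 group means. The filter filterByExpr, with a minimum count of 10 and a minimum total of 15, left 13086 genes, 8 of the 10 members among them. Normalization was by TMM, the test was the quasi-likelihood F test, and Benjamini-Hochberg adjustment ran over all genes, with calls at 0.05 or under. The SE was taken from the fold change and its F value. Each member was also put to an exact permutation test on log2 CPM (prior count 2). With 20 divisions of KO and WT no p under 0.1 is possible, and with 35 of cKO and flox none under 0.0286. P-values measure the spread between embryos, which may share litters. No molecular identifiers are described, so read copies cannot be recognised. Members and, from each partner list, the 3 genes with the lowest p in each deletion are named, plus the 3 most similar genes of a member by correlation. Of those, only the first is given for 5 members. For 1 member, 1 similar gene is not reported here. *Rec8* was added because it could not be tested. Over all libraries the marker lists of endothelial cells summed to 8.80 to 102 CPM (4 of 4 detected) and of macrophages to 0 to 19.4 CPM (5 of 5). Alternatives were RLE size factors, limma 3.58.1 voom, DESeq2 1.42.0, other filters, a fit of 2 groups, the replicate number as a block, and leaving out 1 library at a time. Replicate libraries of a group differed by more than sampling noise. The code was tested on simulated data.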

Additional observations from a re-analysis of the deposited data

Results flagged for a closer look

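*Syce2* in cKO replicate 2 was at 60.9 CPM, while the other 3 cKO libraries were at 17.3 to 22.9 CPM. The gap is wide against the range of the group by Dixon's criterion for 4 values, which chance alone meets in about 1 group of 20, and it was the only one of the 8 measured genes to do so in cKO. *Syce2* is the gene whose 3' end is covered by *Gcdh*, and it had the highest coefficient of variation of the 8 in KO, flox and cKO.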

How the results depend on the processing

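In 97 of 97 recomputed counts, 0 of the genes were called, as reported, under RLE size factors, DESeq2, limma's voom, no filter or at least 10 counts in every library, the fit of only the 2 compared groups, the replicate block and each library left out. With at least 10 counts in every library *Syce2* was not tested. All 64 recomputed group levels moved by less than 1 SD. Same-numbered libraries correlated at 0.0081 to 0.0749 in their deviations from the group means, and 5 of 6 correlated best with their own number. Whether replicate numbers mark pairs of libraries was not tested. With the replicate number as a block, 0 genes were called in any comparison except the cross, and the log2 fold change in cKO against flox turned to −0.0098 for *Syce1* and 0.41 for *Syce2*. With voom that of *Syce2* turned to 0.16. The other 154 of 157 fold changes kept their sign. The cause was not tested.

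Leaving out 1 library changed the sign in 26 of 312 fold changes, none of them called. Without WT replicate 3, 1 of the 8 genes had an unadjusted p under 0.05 in KO against WT. The same held for the difference between the effects in the 2 crosses. In KO against WT the range was −0.046 to 0.16 for *Sycp1*, −0.36 to 0.058 for *Syce1*, −1.53 to 0.076 for *Syce2* and −0.26 to 0.041 for *Syce3*. In cKO against flox it was −0.065 to 0.29 for *Sycp1*, −0.29 to 0.084 for *Sycp2*, −0.11 to 0.20 for *Syce1*, −0.81 to 1.02 for *Syce2*, −0.028 to 0.67 for *Hormad1* and −0.46 to 0.091 for *Trip13*. For the average it was −0.0057 to 0.17 for *Sycp1*, −0.041 to 0.15 for *Sycp2*, −0.17 to 0.056 for *Syce1*, −0.86 to 0.27 for *Syce2*, −0.027 to 0.49 for *Hormad2* and −0.017 to 0.36 for *Trip13*.

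Over all genes, without a filter on low counts 15 genes were called in KO and 11 in cKO, and by DESeq2 12 and 5, against 0 and 0. For the average these settings gave 17 and 14 against 0, for the difference 8 and 10 against 0, and for the cross 35 and 35 against 1. With at least 10 counts in every library 1 gene was called for the average and 0 for the cross. Without WT replicate 3, 2 genes were called in KO and 11 for the cross, without KO replicate 3, 4 for the cross, and without flox replicate 1, 1 for the average. At 2 to 166 counts, a 2-fold change of *Syce2* was not detectable.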
